A study of Mus musculus with 47 samples.

Results

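MHC class II presentation genes were followed through the RNA-seq of a macrophage study of ZMYND8, a chromatin reader protein. The 7 genes were chosen by symbol: H2-Aa, H2-Ab1 and H2-Eb1, which encode chains of the class II molecule, Cd74, H2-DMa, H2-DMb1 and Ciita. They are 7 of the 51912 genes listed for bone marrow-derived macrophages (BMDMs), and each was found in all 12 RNA-seq libraries. The remaining 35 of the 47 samples of the series, from ChIP-seq and ATAC-seq, were not analysed here.

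The 6 BMDM libraries came from C57BL/6 mice. WT mice were littermates with the floxed Zmynd8 allele and no Cre, and Zmynd8 cKO mice carried the floxed allele with Cre driven from the Lyz2 locus, which is active in myeloid cells. All cells were grown from bone marrow with 20 ng/ml M-CSF for 5 days. They were then left untreated (M0), or given for 6 h LPS from bacterial cell walls at 100 ng/ml (M1), or 20 ng/ml IL-4, a cytokine (M2). The study's methods state that material of 3 biological replicates was mixed before sequencing. With 1 library per condition, no difference below has a replicate check. The other 6 libraries are labelled as Raw264.7, a mouse macrophage-like cell line. Of these, 3 are labelled as cells in which Zmynd8 was knocked out with a CRISPR lentivirus: Zmynd8 KO, the KO given back Zmynd8 (Zmynd8 rescue), and the KO given the D/E-A mutant, whose acidic residues in a disordered region were changed to alanine. The other 3 are labelled as p65 KO cells under LPS: p65 KO, the KO given WT p65, and the KO given K122R p65, in which 1 lysine is arginine. The labels give no treatment for the Zmynd8 lines, while the study's text describes the rescue and D/E-A cells as treated with LPS. They also give C57BL/6 as strain for Raw264.7, a line known to be of BALB/c origin. The deposited column used as WT p65 is headed as WT with LPS and does not name the p65 KO.

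Class II molecules carry peptides from endocytosed proteins to the surface, where CD4+ T cells read them. An alpha and a beta chain (H2-Aa with H2-Ab1 for I-A, H2-Eb1 as the beta chain of I-E) assemble on the invariant chain, encoded by Cd74. Lysosomal proteases then trim the invariant chain, and H2-DM, formed by the products of H2-DMa and H2-DMb1, exchanges the remaining piece for a peptide. CIITA is the coactivator of these genes. It binds no DNA itself but docks on the RFX, CREB and NF-Y factors at the X and Y boxes of class II promoters, and IFN-γ is its best known inducer in macrophages.

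In the mm10 coordinates of the Raw264.7 tables, 5 members lie within the MHC on chromosome 17: H2-DMa at chr17:34122719-34139101, H2-DMb1 at chr17:34153191-34160229 and H2-Ab1 at chr17:34263227-34269418, then H2-Aa at chr17:34282751-34287771 on the minus strand and H2-Eb1 at chr17:34305867-34316674. Ciita lies at chr16:10480014-10528606. RefSeq promoter windows (GRCm38.p6, 250 bases before to 50 after the start) were found for 4 of the 7 members. The 3 stretches below are shown because they hold the X and Y box arrangement on which CIITA acts. The capitals mark AAC, as in the X box, and TGATTGG, which includes the inverted CCAAT of the Y box:
H2-Aa (chr17:34287852-34287917, minus strand): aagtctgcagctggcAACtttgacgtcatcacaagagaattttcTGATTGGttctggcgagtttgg
H2-Eb1 (chr17:34305763-34305827, plus strand): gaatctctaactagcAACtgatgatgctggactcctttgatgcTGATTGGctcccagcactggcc
H2-DMb1 (chr17:34153084-34153149, plus strand): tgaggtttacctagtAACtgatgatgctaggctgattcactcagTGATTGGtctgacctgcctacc

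The AAC began 79, 89 and 92 bases before the start in H2-Aa, H2-Eb1 and H2-DMb1, and 25 or 26 bases lay between it and TGATTGG. The pattern (AAC, 20 to 30 bases of any kind, TGATTGG, either strand) was written after these sequences were seen. It was present in 1.05% of all 32851 windows. Neither window of H2-DMa held it. The windows of 4 other class II genes, H2-Oa, H2-Ob, H2-DMb2 and H2-Eb2, did. No window was at hand for H2-Ab1, Cd74 and Ciita.

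The BMDM libraries held 22597425 to 28386646 counts and the Raw264.7 libraries 15127110 to 21042628 reads. The gene-level count of Zmynd8 was 81.5 to 151 CPM (counts per 1000000 counts of the library) in cKO and 79.0 to 128 in WT; it includes exons outside the deleted part and so checks nothing. In Raw264.7, the deposited Zmynd8 value was 116 in the KO and 506 in the rescue. Rela, which encodes p65, had a value of 778 in p65 KO against 1574 with WT p65, and 5963 with K122R. All 9 macrophage markers had reads in all 12 libraries, but in the p65 lines Mertk had only 2 to 4 reads and Mrc1 4 to 12.

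Several libraries stood apart. The 3 Zmynd8-line libraries held reads for 7 of 7 neutrophil markers, with a summed level of 3125 to 8378 RPM (reads per 1000000 reads of the library), against 0.180 to 0.319 in the p65 lines. They also held all 8 B cell markers, with a summed level of 329 to 451 RPM, and Xist at 7109 to 8467 reads against 0 to 3 in the p65 lines, while Ddx3y had at most 1 read in the 2 of them that list it, against 400 to 1810. Raw264.7 is a male macrophage-like line, so these libraries go against their label, and they are called the libraries labelled Zmynd8 KO, Zmynd8 rescue and D/E-A below. Of their reads, 8.17% to 17.1% fell on rRNA entries, against 0.228% to 0.636% in the p65 lines. Among BMDMs, both M2 libraries held neutrophil markers at a summed 280 (WT) and 388 (cKO) CPM against 2.02 to 4.02 in M0 and M1, and the sample indices in their titles come from a separate series of numbers. In bulk samples, fewer cells of a type and less RNA per cell cannot be told apart.

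By the point value of CPM every member was higher in M1 and in M2 than in M0, in WT and in cKO, but with TMM scaling (edgeR's trimmed mean of ratios) H2-Aa and H2-DMb1 in cKO M2 were not (-0.03 and -0.11 on the log2 scale). In cKO against WT, 6 of 7 members were lower in M2, where 10.5% of all tested genes were. In M0, H2-Aa, H2-Ab1 and Cd74 were lower and both H2-DM genes higher, where 25.9% of genes were lower and 21.7% higher, and in M1 only Ciita differed by at least 1.2-fold, upwards, as 17.1% of genes did. Called genes differed by 1.2-fold or more and had an adjusted p below 0.05 in an exact binomial test (two-sided) of their reads, which compares 2 libraries and not conditions. The 95% limits given below cover counting error alone.

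**Figure D1:**
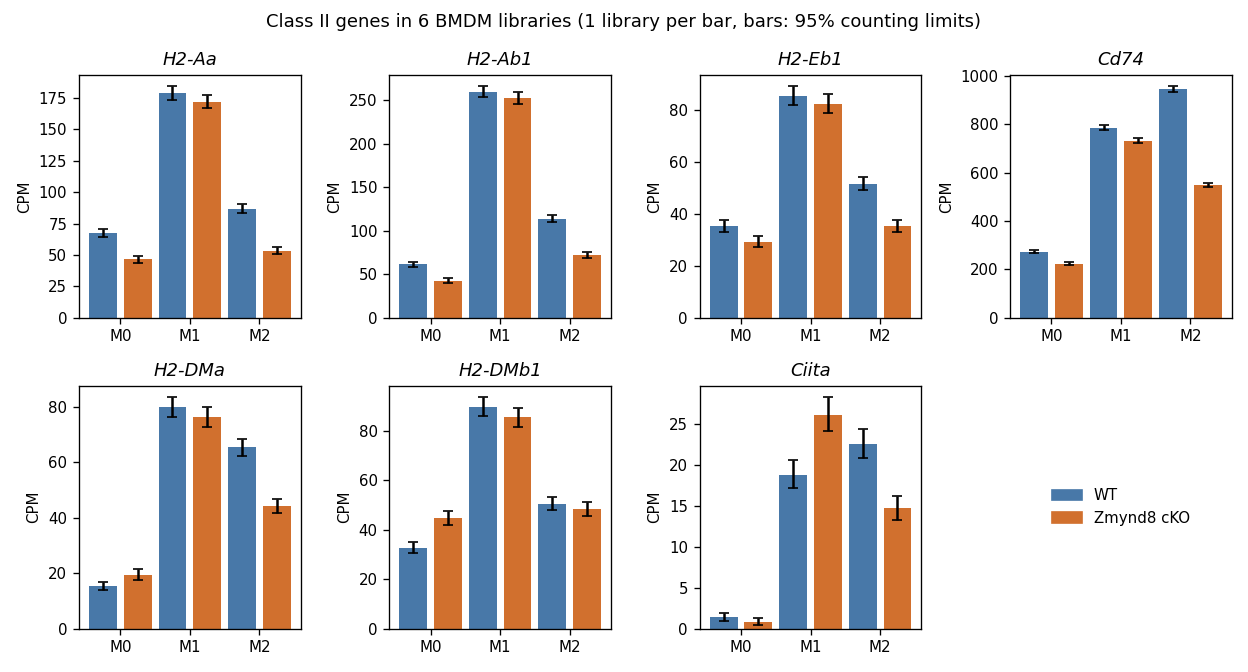
Each bar is the CPM of 1 member in 1 BMDM library, WT in blue and Zmynd8 cKO in orange, with 95% counting limits. Ciita was under 1.4 CPM in both M0 libraries and between 14.7 and 26.2 CPM in the treated ones, and the WT bar of Cd74 in M2 was the highest of all at 946 CPM.

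Cd74 was the most abundant member per transcript length in all 6 BMDM libraries, by the deposited TPM (transcript levels divided by length and scaled to a common total). Its TPM was 383 in WT M0, 264 in cKO M0, 1032 in WT M1, 1015 in cKO M1, 1349 in WT M2 and 764 in cKO M2. Ciita was the least abundant, at 0.38 and 0.18 TPM in WT and cKO M0, 5.03 and 7.35 in M1, and 6.32 and 4.02 in M2. The chain genes ranked between them. H2-Aa was above H2-Ab1 in M0 (109 against 90.1 TPM in WT), and H2-Ab1 was above H2-Aa in M1 (363 against 273) and M2 (171 against 143). The same order held in cKO, with 62.2 against 52.0 TPM in M0 for H2-Aa and H2-Ab1, and 374 and 106 TPM of H2-Ab1 against 279 and 85.8 of H2-Aa in M1 and M2. H2-DMb1 was above H2-DMa in M0 (39.9 against 16.9 TPM in WT, 48.5 against 17.5 in cKO), and H2-DMa was above H2-DMb1 in WT M2 alone, at 74.9 against 65.9. H2-DMb1 counts were not whole numbers before rounding in any BMDM library (857 from 856.63 in WT M0), so some of its reads were split with other entries. H2-DMb2 is its near-identical copy, and values of both are uncertain.

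LPS raised all members in WT. H2-Aa went from 67.7 to 179 CPM, H2-Ab1 from 61.2 to 259 and H2-Eb1 from 35.2 to 85.5. Cd74 went from 273 to 786 CPM. H2-DMa rose from 15.3 to 79.9 CPM and H2-DMb1 from 32.7 to 89.9. Ciita had 36 reads in M0 and 469 in M1 (1.37 and 18.8 CPM), a 13.7-fold ratio with limits of 9.76 to 19.8. All 7 were called higher, where 20.6% of 12813 tested genes rose and 61.1% fell. At a fold of at least 2 all 7 were called, where 10.5% of genes were. Members had a median log2 fold change of 1.52, and all genes tested one of -0.58. Scaling by TMM raises the median of all genes by 0.49, and of the genes then called 45.2% were higher in place of 25.2%.

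LPS raised all members in cKO too. H2-Aa went from 46.4 to 172 CPM, H2-Ab1 from 42.3 to 252 and H2-Eb1 from 29.3 to 82.5. Cd74 went from 224 to 733, H2-DMa from 19.5 to 76.2, H2-DMb1 from 44.6 to 85.5 and Ciita from 0.797 to 26.2 CPM (18 and 613 reads). All 7 were called higher, where 23.8% of the tested genes were and 58.9% were lower. At a fold of at least 2 the number was 6, where 13.2% of genes were called higher. The members had a median of 1.87 against -0.55 for all genes tested. The same 4 dendritic cell markers as in WT were called higher and Itgax lower, and their part was not tested.

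The size of the LPS response differed between the WT and cKO libraries, 1 of each per treatment, and the direction was not the same for every member. In M1 itself no member but Ciita was called between the genotypes, so for the others the difference rests mainly on the M0 pair. The cKO response exceeded the WT response by 0.49 on the log2 scale for H2-Aa (limits 0.36 to 0.62), by 0.49 for H2-Ab1 (0.37 to 0.62), by 0.21 for H2-Eb1 (0.04 to 0.38), by 0.19 for Cd74 (0.13 to 0.25) and by 1.26 for Ciita (0.38 to 2.18). For H2-DMa and H2-DMb1 the cKO response was smaller than that of WT, by -0.41 (-0.63 to -0.19) and -0.52 (-0.68 to -0.36). These limits come from an exact conditional interval on the 4 read counts. On log2(TPM + 1) of the deposited TPM the response was nearly equal for H2-DMa, at 2.21 in WT and 2.18 in cKO, and the difference for H2-DMb1 was -0.26. On that scale it was 0.83 for H2-Aa and for H2-Ab1, 0.55 for H2-Eb1, 0.51 for Cd74 and 0.70 for Ciita.

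**Figure D2:**
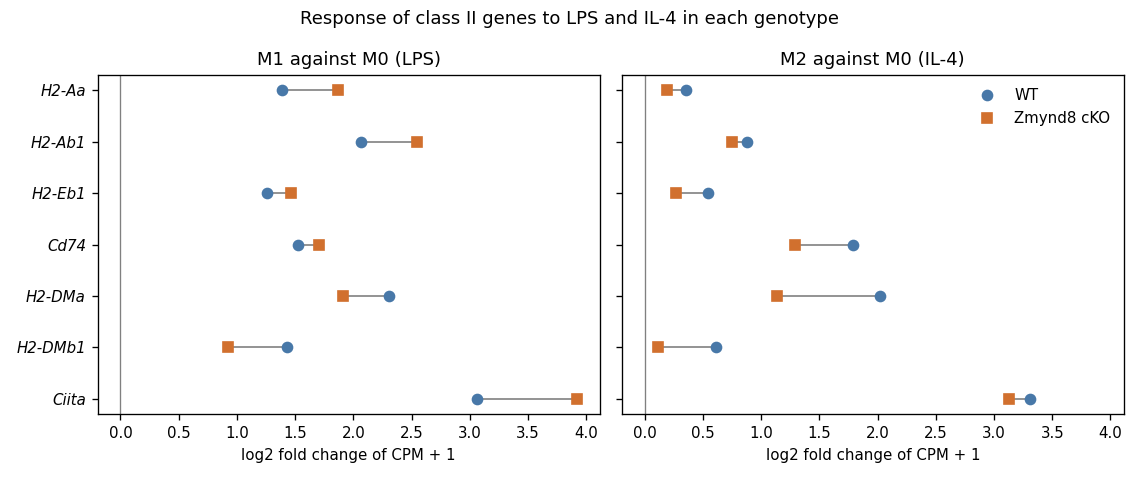
The horizontal axis is the log2 fold change of CPM + 1 against M0 for LPS (left) and IL-4 (right), with a blue circle for WT and an orange square for cKO. Both panels share the M0 libraries. The squares of H2-DMa and H2-DMb1 lie left of the circles in both panels, whereas for the other 5 members they lie right of the circles for LPS (Ciita 3.92 against 3.06) and left of them for IL-4. For Ciita under IL-4 the side depends on the added 1 CPM, since the reads alone gave a difference of 0.17 with limits of -0.71 to 1.09.

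The members were also higher in M2, the libraries given IL-4, with Ciita, H2-DMa and Cd74 at the top. These libraries held neutrophil markers at 280 (WT) and 388 (cKO) CPM against 2.02 to 4.02 in M0 and M1. Their dendritic cell markers summed to 248 (WT) and 216 (cKO) CPM against 51.9 and 68.6 in M0. Nearly all of these sums was Itgax, at 242 and 210 CPM in M2 and 50.1 and 67.8 in M0. In WT, Ciita went from 1.37 to 22.5 CPM, H2-DMa from 15.3 to 65.4 and Cd74 from 273 to 946. The chain genes moved less, H2-Aa from 67.7 to 86.8 CPM, H2-Ab1 from 61.2 to 114 and H2-Eb1 from 35.2 to 51.7, and H2-DMb1 went from 32.7 to 50.4. All 7 were called higher, where 38.6% of 13090 tested genes were and 21.7% were lower. At a fold of at least 2 the number was 3, where 10% of genes were. Their median log2 fold change was 0.88 against 0.15 for all genes tested. With TMM, which shifts all genes by -0.15, the call of H2-Aa was lost (0.18).

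In cKO, 5 of 7 members were called higher after IL-4, where 42.2% of tested genes were and 24.8% were lower. At a fold of at least 2 the number was 3, where 15% of genes were. Ciita went from 0.797 to 14.7 CPM, Cd74 from 224 to 548, H2-DMa from 19.5 to 44.1, H2-Ab1 from 42.3 to 71.7 and H2-Eb1 from 29.3 to 35.5. H2-Aa (46.4 and 53.1 CPM) and H2-DMb1 (44.6 and 48.3 CPM) were not called, and their log2 fold changes of 0.19 and 0.11 turned to -0.03 and -0.11 with TMM. The call of H2-Eb1 was lost there too (0.05). The cKO response fell short of the WT response by -0.91 for H2-DMa (limits -1.14 to -0.68), by -0.51 for H2-DMb1 (-0.68 to -0.34) and by -0.50 for Cd74 (-0.56 to -0.44). The difference was -0.28 for H2-Eb1 (-0.47 to -0.09) and -0.16 for H2-Aa (-0.31 to -0.02), and its limits included 0 for H2-Ab1 and Ciita. On deposited TPM the direction turned for H2-Aa (0.07) and H2-Ab1 (0.10), the difference was -0.05 for H2-Eb1, and H2-DMa (-0.55), H2-DMb1 (-0.38) and Cd74 (-0.29) kept theirs. H2-Aa and H2-DMb1 passed a fold of 1.2 in cKO on that scale (0.46 and 0.33). The M2 libraries are those with neutrophil markers, so the effect of IL-4 and whatever set these libraries apart cannot be told apart.

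The comparison of cKO with WT within a treatment asks how loss of ZMYND8 in myeloid cells changes expression. In M0, both I-A chains and the invariant chain were lower in cKO and both H2-DM genes higher. The cKO level was 0.686 times the WT level for H2-Aa (limits 0.635 to 0.741), 0.691 times for H2-Ab1 (0.637 to 0.749) and 0.820 times for Cd74 (0.790 to 0.850), all called lower, but the call of Cd74 was lost with TMM (log2 fold change -0.26). H2-Eb1, at 0.833 times, lay at the threshold and was not called on the CPM + 1 scale, where the log2 fold change was -0.26 (adjusted p = 0.000761, exact binomial test). H2-DMa, at 1.27 times (1.11 to 1.46), and H2-DMb1, at 1.36 times (1.24 to 1.5), were called higher. Ciita had 36 reads in WT and 18 in cKO, a ratio of 0.580 with limits of 0.310 to 1.05, and was not called. Thus 3 members were called lower, where 25.9% of 12463 tested genes were, and 2 higher, where 21.7% were. None reached a fold of 2, which 3.83% of genes did. On the deposited TPM, by the fold alone, H2-DMa (16.9 and 17.5) was under the threshold of 1.2-fold, H2-Eb1 passed it (53.3 and 37.0, log2 fold change -0.51), and Cd74 was at -0.53 in place of -0.29.

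In M1, no member but Ciita differed by 1.2-fold. The cKO to WT ratio was 0.962 for H2-Aa (0.922 to 1.00), 0.973 for H2-Ab1 (0.939 to 1.01), 0.965 for H2-Eb1 (0.907 to 1.03), 0.933 for Cd74 (0.914 to 0.952), 0.953 for H2-DMa (0.894 to 1.02) and 0.951 for H2-DMb1 (0.895 to 1.01). None of these 6 was called, and on deposited TPM the direction flipped for all of them but Cd74, with log2 fold changes between 0.01 and 0.04. Ciita was called higher in cKO, at 18.8 CPM in WT and 26.2 in cKO (1.39-fold, limits 1.23 to 1.57, adjusted p = 6.01e-07, exact binomial test). That is 1 member of 7, where 17.1% of 12387 tested genes were called higher and 8.76% lower. None reached a fold of 2, where 0.904% of genes did.

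In M2, 6 of 7 members were lower in cKO. Cd74 fell to 0.579 times the WT level (limits 0.568 to 0.591), H2-Aa to 0.612 (0.573 to 0.654), H2-Ab1 to 0.630 (0.595 to 0.668), Ciita to 0.652 (0.573 to 0.741), H2-DMa to 0.675 (0.627 to 0.727) and H2-Eb1 to 0.687 (0.632 to 0.746). H2-DMb1 was not called, at 0.958 times (0.888 to 1.03). These 6 of 7 called lower stand where 10.5% of 13245 tested genes were called lower and 13.8% higher. None reached a fold of 2, while 1.97% of genes did. The median log2 fold change was -0.59 for the members and 0.01 for all genes tested. The genotype ratio of M2 was below that of M1 for every member except H2-DMb1, by -1.09 for Ciita (limits -1.35 to -0.83) and -0.69 for Cd74 (-0.73 to -0.65).

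Beside these results, the neutrophil markers summed to 280 CPM in WT M2 and 388 in cKO M2, and the dendritic cell markers to 248 and 216, nearly all of it Itgax (242 and 210 CPM), an integrin that macrophages express too. Of the dendritic cell markers, Cd209a was at 0 in both M2 libraries and Flt3 at 0.881 and 0.919 CPM. The B cell markers summed to 15.0 and 24.1 CPM in M2, to 5.04 and 14.5 in M0, and to 2.97 and 2.22 in M1. Of these, 2 were tested, Cd79b and Ighm. In cKO both were called higher in M0 (log2 fold change 1.24 and 1.26) and in M2 (0.58 and 0.72), and Ighm was called lower in M1 (-0.51). The macrophage list summed to 18721 CPM in WT and 14948 in cKO in M0, 13328 and 9637 in M1, and 19710 and 15716 in M2. Lyz2, the locus that carries Cre in the cKO, was at 10950 and 7202 CPM in M0, 6902 and 2892 in M1, and 8941 and 5245 in M2. Without it the other 8 markers summed to 7770 and 7746 CPM in M0, 6426 and 6745 CPM in M1 and 10769 and 10471 CPM in M2. Of all 9, 2 were called higher and 6 lower in cKO in M0, 2 and 2 in M1, and 2 and 4 in M2, with list medians of -0.60, -0.05 and -0.04. The shares of all genes tested that were called higher and lower were 21.7% and 25.9% in M0, 17.1% and 8.76% in M1, and 13.8% and 10.5% in M2. The part of these cell type genes in the class II differences was not tested.

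**Figure D3:**
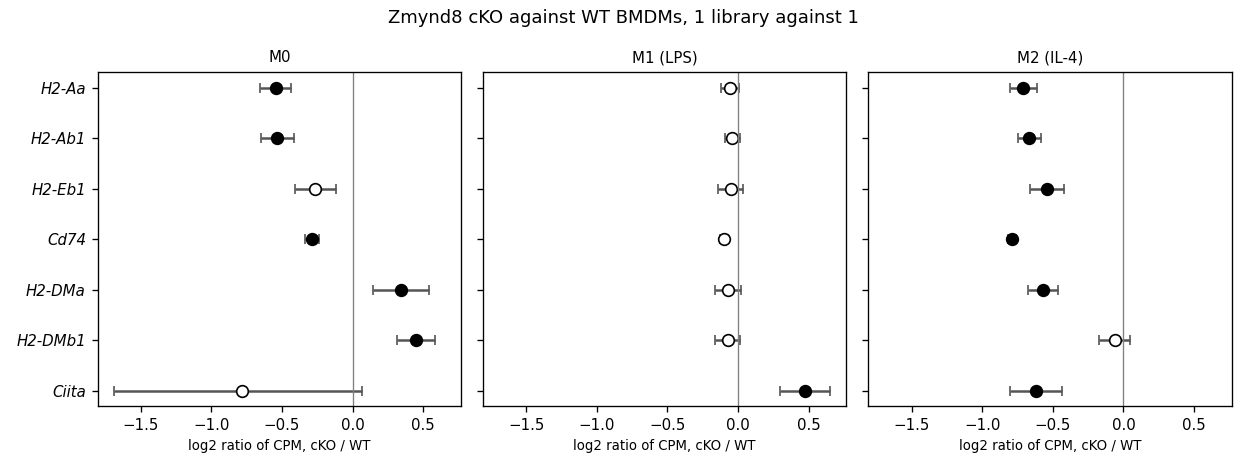
Points are the log2 ratio of CPM in Zmynd8 cKO over WT for each member in M0, M1 and M2, with 95% counting limits; filled points were called and open points were not. In M2 every point but H2-DMb1 lies left of -0.5, in M1 only Ciita is filled, and in M0 H2-DMa and H2-DMb1 lie on the right while the other 5 lie on the left.

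By CPM, WT M1 and cKO M1 came first for H2-Aa, H2-Ab1, H2-Eb1, H2-DMa and H2-DMb1 and could not be separated beyond counting error, followed by WT M2. WT M0 came above cKO M2 for H2-Aa (67.7 and 53.1 CPM) and below it for H2-Ab1 (61.2 and 71.7), both beyond counting error, and the pair could not be separated for H2-Eb1. The lowest level was in cKO M0 for H2-Aa, H2-Ab1, H2-Eb1, Cd74 and Ciita, and in WT M0 for H2-DMa and H2-DMb1. For Cd74 the order was WT M2, WT M1, cKO M1, cKO M2, WT M0 and cKO M0, each step beyond counting error. For Ciita it was cKO M1, WT M2, WT M1, cKO M2, WT M0 and cKO M0, and the last 2 could not be separated. With TMM WT M1 stood above WT M2 for both genes, since the log2 fold change against WT M0 was then 2.11 in M1 and 1.61 in M2 for Cd74, and 3.50 and 3.17 for Ciita. For Cd74 cKO M1 then passed WT M2 as well, being 0.14 below WT M1 (log2 fold change -0.14). For H2-Aa cKO M2 then came below cKO M0 (-0.03).

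Across the 6 libraries, the log2(CPM + 1) of Ciita correlated with that of Cd74 and H2-DMa at Pearson r = 0.97 and 0.96, and with the other members at 0.68 (H2-Aa) to 0.81 (H2-Ab1). These values are a description over 6 points that share library and treatment. Among 5104 genes averaging 10 CPM or more, with an SD over the libraries of 0.5 or more on the log2 scale, the 10 non-members most like the mean pattern of the chain genes and Cd74 were Rubcnl, Cacna1d, Sertad3, Nub1, Scarf1, Plekhg2, Hook2, Il17ra, Zswim4 and Msi2, at r of 0.98 to 0.97. Rubcnl, the closest, was at 8.39 CPM in WT M0, 3.85 in cKO M0, 24.2 in WT M1, 26.1 in cKO M1, 13.6 in WT M2 and 9.19 in cKO M2.

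Genes that act with the members were taken from lists by role. Among the minor class II chains, H2-Oa and H2-Ob, which form the DM inhibitor H2-DO, were low. H2-Oa was at most 1.37 CPM. H2-Ob had 1, 4 and 5 reads in WT M0, M1 and M2 and 1, 20 and 23 in cKO, and was called higher in cKO in M1 and M2. H2-DMb2 had 103 reads in WT M2 and 44 in cKO M2 and was called lower. H2-Ea-ps, the I-E alpha gene that C57BL/6 mice do not express, had at most 3 reads in any BMDM library.

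Of 12 genes of antigen processing, 2 were called higher and 5 lower in cKO in M0, 0 and 3 in M1, and 0 and 2 in M2. Of all genes tested, 21.7% were called higher and 25.9% lower in M0, 17.1% and 8.76% in M1, and 13.8% and 10.5% in M2, so 2 of 12 in M2 is near that share. Cathepsin S (Ctss), the protease that completes invariant chain cleavage, was at 3543 CPM in WT and 2502 in cKO in M0 (log2 fold change -0.50), at 3503 and 2437 in M1 (-0.52), and at 3207 and 2986 in M2, where it was not called. Ifi30, the lysosomal thiol reductase GILT, was at 84.1 and 131 CPM in M0 and was called higher (0.63), and at 226 and 186 in M2 and was called lower (-0.28). Legumain (Lgmn) fell by 0.74 in M0. Ctsh (-0.46) was called lower in M1, and Ctsd, which encodes an aspartic protease, in M1 (-0.48) and M2 (-0.57). The median of the list was -0.18, -0.20 and -0.12 in M0, M1 and M2, where that of all genes tested was -0.01, 0.03 and 0.01.

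Of 10 genes of the class II enhanceosome, 7 were called lower and 1 higher in cKO in M0, where 25.9% of all genes were lower and 21.7% higher. Among them were Rfx5, the DNA-binding RFX subunit, at 8.78 and 5.53 CPM (-0.58) and the acetyltransferase Ep300 at 134 and 71.8 CPM (-0.89). In M1, 4 were called higher, Creb1 (0.50), Crebbp (0.44), Ep300 (0.42) and Kat2b (0.27), and none lower, where 17.1% of all genes were higher and 8.76% lower. In M2, Nfya (-0.27) was the 1 gene called, lower, where 10.5% of all genes were. The median of the list was -0.49, 0.22 and -0.01 in M0, M1 and M2.

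Of 13 tested regulators of Ciita, 6 were called lower in cKO in M0 and none higher, where 25.9% of all genes were lower and 21.7% higher. In M1 2 were called in each direction (17.1% of all genes higher, 8.76% lower), and in M2 3 were called higher and 2 lower (13.8% and 10.5%). The median of the list was -0.36, 0.01 and -0.04. Irf1, a transcription factor induced by IFN-γ that acts on the Ciita promoter, was at 59.0 CPM in WT M0 and 31.8 in cKO M0 (-0.87). In M1, Jak2 (0.34) and Prdm1 (0.48) were called higher, and Irf8 (-0.32) and Spi1 (-0.44), which encodes PU.1, lower. In M2, Jak2 (0.29) and the JAK inhibitor Socs1 (0.52) were among those called higher. Irf4, which IL-4 induces, was at 1.87, 1.00 and 75.8 CPM in WT M0, M1 and M2 and at 1.24, 0.469 and 31.9 in cKO, and was called lower in M2 (-1.22). Prdm1, which encodes the Ciita repressor BLIMP1, was called lower there too (-0.42). Ifng had 0 reads in 5 BMDM libraries and 0.0383 CPM, 1 read, in cKO M2. Of the turnover genes, March1, the ligase that sends surface class II to degradation, fell by 0.88 in M0, and Cd83, which opposes it, was called higher in M1 (0.41) and M2 (0.35).

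Among the libraries labelled Raw264.7, the class II level split by experiment. H2-Ab1 was at 301, 161 and 221 RPM in the libraries labelled Zmynd8 rescue, D/E-A and Zmynd8 KO, and at 1.60, 4.62 and 3.83 with WT p65, with K122R and in p65 KO. Cd74 differed less, at 993, 523 and 663 in the first 3 and 269, 572 and 477 in the other 3. Ciita had 314, 239 and 320 reads in the first 3 but only 2, 11 and 10 in the other 3. H2-Ea-ps had 46, 157 and 102 reads with WT p65, with K122R and in p65 KO, and was not listed for the libraries labelled Zmynd8 rescue, D/E-A and Zmynd8 KO. The experiments were normalized separately and are set side by side here without a test.

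**Figure D4:**
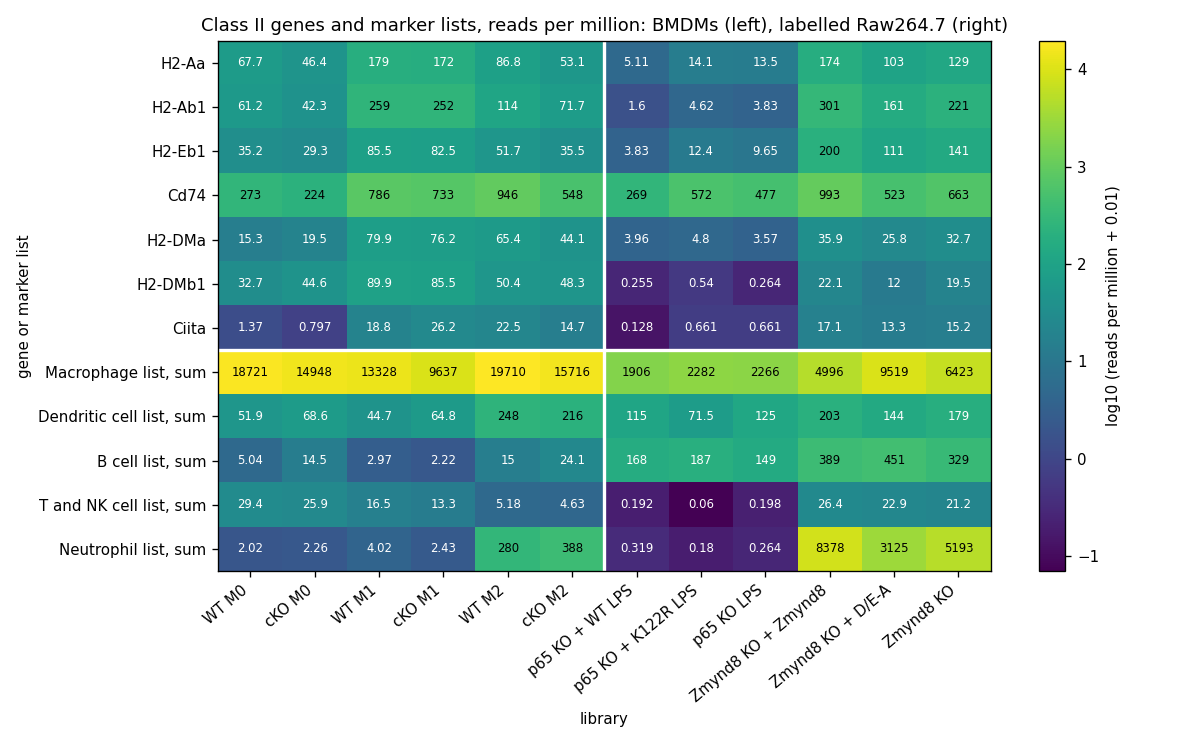
Each cell gives RPM of a member or of a summed marker list in 1 of 12 libraries, coloured by log10 of that value + 0.01, with BMDMs left of the vertical white line and libraries labelled Raw264.7 right of it. The 3 Zmynd8-line columns hold H2-Ab1 at 161 to 301 and neutrophil sums of 3125 to 8378, whereas the p65 columns hold 1.60 to 4.62 and 0.180 to 0.319.

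The D/E-A line asks whether Zmynd8 lacking its acidic residues acts like WT Zmynd8. In the library labelled D/E-A all 7 members were lower than in the rescue. The deposited value, a read number divided by a size factor, went from 17856 to 9591 for Cd74, a ratio of 0.537 with limits of 0.524 to 0.551. H2-Aa went from 3135 to 1898 (0.605, limits 0.571 to 0.641), H2-Ab1 from 5409 to 2946 (0.545, 0.520 to 0.570) and H2-Eb1 from 3588 to 2030 (0.566, 0.535 to 0.598). H2-DMb1 went from 397 to 221 (0.557), H2-DMa from 645 to 473 (0.733) and Ciita from 307 to 245 (0.797, limits 0.671 to 0.947). All 7 passed a fold of 1.2, the rule used alone here, where 35.9% of 12771 genes did so downwards and 36.7% upwards. None passed a fold of 2, which 18.4% of genes did. The median was -0.82 for the members and 0.02 for all genes.

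Of 14 regulators of Ciita, 10 passed upwards in D/E-A and 1 downwards, where 36.7% and 35.9% of all genes did. The 1 was Ifng (46 reads in the rescue, 34 in D/E-A), while Irf1 (0.72) and Socs1 (1.04) were among those higher. In the same libraries the neutrophil markers summed to 8378 RPM in the rescue and 3125 in D/E-A, the dendritic cell markers to 203 and 144, the B cell markers to 389 and 451, the T and NK cell markers to 26.4 and 22.9, and the macrophage markers to 4996 and 9519. Of the 8 dendritic cell markers listed, 3 passed upwards and 5 downwards, and Ccr7, a marker of migrating dendritic cells, made up 137 of the 203 RPM in the rescue and 71.6 of the 144 in D/E-A. The rRNA share was 17.1% in the rescue and 8.17% in D/E-A. The part of these cell type genes and of the rRNA share in the class II difference was not tested.

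In the library labelled Zmynd8 KO, 4 of 7 members were lower than in the rescue by at least 1.2-fold, where 36.5% of 21302 genes were lower and 33.8% higher. None passed a fold of 2, as 25.6% of genes did. The ratio was 0.702 for Cd74 (limits 0.687 to 0.718), 0.742 for H2-Eb1 (0.707 to 0.779), 0.771 for H2-Ab1 (0.742 to 0.802) and 0.780 for H2-Aa (0.741 to 0.821). H2-DMa (0.959), H2-DMb1 (0.929) and Ciita (0.937, 0.8 to 1.10) stayed under the fold rule, and their limits included 1. The Zmynd8 KO and D/E-A comparisons share the rescue library. In the KO the neutrophil markers summed to 5193 RPM, the B cell markers to 329, the dendritic cell markers to 179 and the T and NK cell markers to 21.2, all below the rescue. Of the dendritic cell markers 3 passed upwards and 2 downwards, with Ccr7 at 137 RPM in the rescue and 108 in the KO. Of the B cell markers 2 passed upwards and 5 downwards. Of the 7 T and NK cell markers tested, 1 passed upwards, Cd4 (134 reads in the rescue and 208 in the KO), and 4 downwards. Among these 4 were Cd3e (38 and 2 reads), Cd3d (23 and 3) and Cd3g (28 and 0). The macrophage markers summed to 6423, above the rescue, and 8 of 9 passed upwards. The rRNA share was 13.8% in the KO and 17.1% in the rescue. The part of these values in the class II difference was not tested.

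K122R p65 cannot be acetylated at that lysine, and the comparison sets it beside WT p65 under LPS. The 2 libraries also differed in the level of Rela itself (1571 with WT p65, 5963 with K122R) and of Zmynd8 (1791 and 1091), and the part of these levels was not tested. All 7 members were above a fold of 1.2 with K122R, where 30.8% of 19670 genes were higher and 32.5% lower. At a fold of at least 2 the number was 6, where 10.5% of genes were higher. Cd74 went from 4134 to 9704 (2.35-fold, limits 2.26 to 2.43), H2-Aa from 78.5 to 239 (3.04, 2.35 to 3.97), H2-Ab1 from 24.5 to 78.5 (3.20, 2.02 to 5.25) and H2-Eb1 from 58.9 to 210 (3.57, 2.66 to 4.84). H2-DMa went from 60.8 to 81.5, H2-DMb1 had 4 and 9 reads, and the limits of both included no change. Ciita had 2 and 11 reads, a ratio of 5.71 with limits of 1.25 to 53.1. With an exact binomial test on the reads added, 4 of the 7 were called (H2-Aa, H2-Ab1, H2-Eb1 and Cd74), where 13% of all genes were called higher. Of the Y-linked genes, Ddx3y, Kdm5d, Eif2s3y and Uty were higher with K122R as well, by 1.77 to 2.23 on the log2 scale (Ddx3y at 400 and 1810 reads), and their part was not tested.

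In p65 KO cells 5 of 7 members were higher than with WT p65, where 26.3% of 19879 genes were higher and 25.7% lower. At a fold of at least 2 the number was 4, where 9.26% of genes were higher. The ratio was 2.64 for H2-Aa (2.03 to 3.46), 2.52 for H2-Eb1 (1.85 to 3.46), 2.40 for H2-Ab1 (1.48 to 4.01) and 1.77 for Cd74 (1.71 to 1.84). Ciita had 2 reads with WT p65 and 10 in the KO. H2-DMa had 62 and 54 reads and H2-DMb1 4 and 4, with no call. With the binomial test added, 4 were called, without Ciita, where 6.45% of all genes were called higher. The same 4 Y-linked genes were higher in the KO by 0.50 to 1.04 (Ddx3y at 400 and 677 reads), and their part was not tested. This comparison and the K122R comparison share the WT p65 library, whose own values of H2-Aa, H2-Ab1, H2-Eb1, Cd74 and Ciita are the low ones in both. Neutrophil markers were at or below 3 reads each in the p65 lines, the B cell markers summed to 168, 187 and 149 RPM and the dendritic cell markers to 115, 71.5 and 125 RPM with WT p65, with K122R and in p65 KO.

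**Figure D5:**
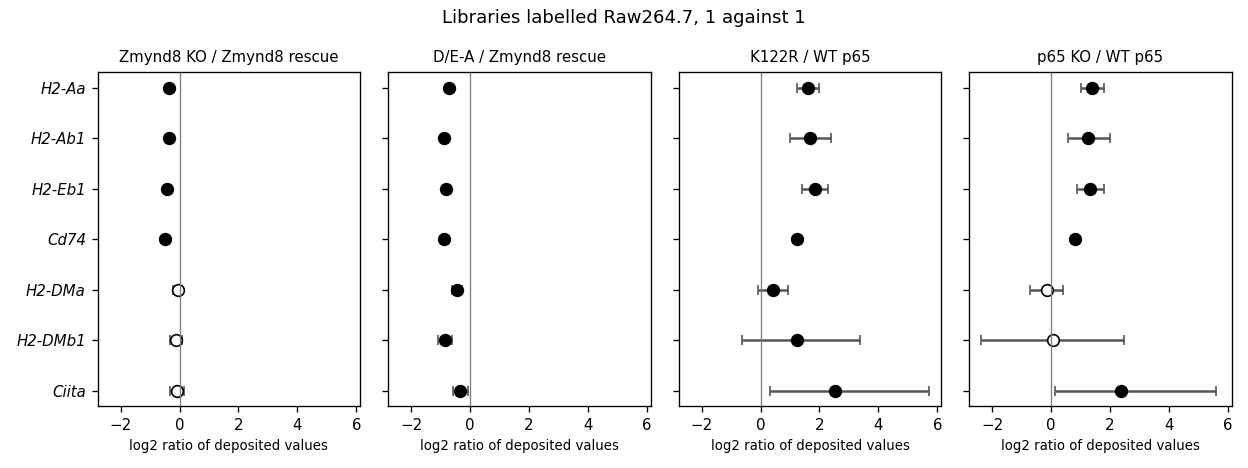
Points are log2 ratios of the deposited values against the rescue library named in each panel, with 95% counting limits; filled points passed a fold of 1.2. All points of the D/E-A panel lie left of 0, while H2-Aa, H2-Ab1, H2-Eb1 and Cd74 lie right of 0 in both p65 panels with wide limits for H2-DMb1 and Ciita, which rest on 2 to 11 reads.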

How the data were processed

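Values of 7 named genes were taken from RNA-seq tables of 12 libraries. BMDM reads were aligned to mm10 by the authors using TopHat, and they deposited estimated counts and TPM per gene. The submitters' processing notes name Bowtie 0.12.2 and CASAVA 1.4. For Raw264.7, the authors deposited a normalized signal value, which for nearly all genes equals whole reads (tolerance 0.02) divided by a size factor. The design had allowed for counts, and its rule for normalized values was applied. Entries that were not genes (431, 431 and 2) and 2 unlabelled columns were left out, and the deposited fold changes and p-values were not used.

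Estimated counts were rounded and divided by library totals. Genes averaging 10 counts or more were compared on log2(CPM + 1) with a two-sided exact binomial test and Benjamini-Hochberg adjustment. Raw264.7 genes averaging 1 or more were compared on log2(value + 1) by fold alone. Limits are Clopper-Pearson. edgeR 4.0.16 supplied TMM factors. The code was tested on simulated data. All members, and list genes by role, were named; some list genes are counted but not reported here. Members and lists were chosen with earlier results of these data known.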

Additional observations from a re-analysis of the deposited data

Results flagged for a closer look

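The cKO to WT difference of Ciita was called in opposite directions after the 2 treatments. Its log2 fold change was 0.45 in M1 (469 reads in WT, 613 in cKO) and -0.59 in M2 (640 and 384 reads). The M2 value lay 1.09 below the M1 value on the log2 scale (limits -1.35 to -0.83 for the difference, counting error only), and scaling by the median ratio, TMM or deposited TPM kept both directions.

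H2-DMa had opposite calls in M0 and M2. Its log2 fold change was 0.33 in M0 (402 and 440 reads) and -0.56 in M2 (1856 and 1153 reads). On deposited TPM the M0 value was 0.05 and was not called. With 1 library per condition, neither difference was tested against replicate spread.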

How the results depend on the processing

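No paired analysis was possible because each condition has 1 library, and no replicate could be left out. Under the planned and added alternatives, 65 of 73 counts of called members stayed within 1.5 times the reported one, and 461 of 511 single-gene values kept their call and none reversed a call. With a fold of at least 2, 0 members were called in cKO against WT in M0, M1 and M2, 0 in D/E-A and 0 in Zmynd8 KO, and 3 each in M2 against M0 in WT and cKO; fewer genes pass by construction. With an exact binomial test on the recovered reads, chosen after seeing the data, 4 members were called in K122R. That test calls 7841 of 9271 genes that pass the fold rule in D/E-A, 6683 of 14978 in Zmynd8 KO, 5219 of 12453 in K122R and 2620 of 10325 in p65 KO. In cKO against WT in M0, TMM lost the call of Cd74 (-0.26) and a pseudocount of 0.1 gained that of H2-Eb1 (-0.26). TMM moved the share of calls that were higher from 25.2% to 45.2% for LPS in WT and from 28.8% to 47.2% in cKO, and from 64.1% to 48.5% and 63% to 48.3% for IL-4. Scaling by the median ratio moved it from 66.1% to 52.9% in cKO against WT in M1. Equal library totals moved it from 48.6% to 33.7% in K122R. Depth limits Ciita in M0 and the H2-DM genes and Ciita in the p65 lines.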
